A study of Mus musculus with 18 samples.

Results

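The type I interferon-stimulated genes described here are 37 mouse genes given by name, from Ifit1 to Lgals3bp, whose transcripts cells make in larger amounts after interferon alpha or beta. They were taken from a table of read counts with 48794 genes by matching its Ensembl gene IDs to gene symbols. All 37 were found and passed the filter on low counts, Ifit3b only through its counts in the untreated cells. The rule gives the genes by name and uses no value measured in these libraries. The members were, however, chosen with earlier results of these data known. RNA was sequenced from bone marrow-derived macrophages (BMDMs), macrophages matured in culture from marrow cells, of male C57BL/6 mice. All cells shared 7 days of maturation in 50 ng/ml of M-CSF, a growth factor for macrophages, and a further 24 h in 10 ng/ml of it. The Control cells received nothing else. The IL4_IL13 cells also received the type 2 cytokines IL-4 and IL-13, at 10 ng/ml each, and in the IL4_IL13_TNFa cells the inflammatory cytokine TNFa was added at the same dose. There were 6 libraries per group, with the numbers 1 to 6. No group received interferon, no group received TNFa alone, and neither the age of the mice nor any pooling of animals is stated. Whether the 6 libraries of a group stem from separate mice or cultures is not stated, so the spread behind the p-values may be technical.

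Type I interferons bind a receptor made of IFNAR1 and IFNAR2, which activates the kinases JAK1 and TYK2. These phosphorylate STAT factors, STAT2 among them, which join IRF9 in the complex ISGF3. ISGF3 binds a DNA element, the interferon-stimulated response element (ISRE), in the promoters of these genes. Their products sense viral RNA and DNA, block translation or copying of viruses, and raise or restrain further interferon signalling. Macrophages in culture are known to hold a low level of this programme without infection, through small amounts of interferon beta.

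The ISRE is the sequence that links these genes to interferon, so it was looked for in their promoters. Windows of 300 bases, 250 before the transcription start and 50 from it, were at hand for 27 of the 37 members in RefSeq (GRCm38.p6). The core of the element, GAAA, then 2 bases of any kind, then GAAA, stood on either strand in 14 of these 27 genes: Ifih1, Ddx58, Ddx60, Stat2, Ifit1, Ifit3, Ifit3b, Oas1a, Oas3, Isg15, Rsad2, Eif2ak2, Bst2 and Trim30a. Counted by window, 15 of 32 member windows (46.9%) held them, against 3.44% of all 32851 windows in the table and 3.28% of the windows of genes tested here. The letters were not in the windows of Irf7, Irf9, Ifit2, Oasl1, Oasl2, Herc6, Cmpk2, Isg20, Samhd1, Xaf1, Ifi35, Ifi44 and Lgals3bp. Below are the windows of the 3 IFIT genes and of Isg15, which fell most steeply or are the standard examples of the group, and of Samhd1, which did not pass the test for a fall. They are written 5′ to 3′ on the gene's strand, with matches to the ISRE letters in capitals. In Ifit1 (chr19:34640639-34640938, plus strand) the matches began 104 and 85 bases before the start. In Ifit3 (chr19:34583279-34583578, plus strand) they began 156 and 122 bases before it, and in its neighbour Ifit3b (chr19:34607707-34608006, plus strand) 188 and 154 bases before it. Isg15 (chr4:156200769-156201068, minus strand) held 3 overlapping matches, and Samhd1 (chr2:157135047-157135346, minus strand) held none.
Ifit1: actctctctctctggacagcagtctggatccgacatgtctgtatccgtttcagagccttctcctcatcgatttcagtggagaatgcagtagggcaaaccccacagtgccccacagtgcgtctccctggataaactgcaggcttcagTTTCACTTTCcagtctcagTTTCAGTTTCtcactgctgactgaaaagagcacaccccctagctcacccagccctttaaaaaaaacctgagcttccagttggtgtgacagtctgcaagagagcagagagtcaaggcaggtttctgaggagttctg
Ifit3: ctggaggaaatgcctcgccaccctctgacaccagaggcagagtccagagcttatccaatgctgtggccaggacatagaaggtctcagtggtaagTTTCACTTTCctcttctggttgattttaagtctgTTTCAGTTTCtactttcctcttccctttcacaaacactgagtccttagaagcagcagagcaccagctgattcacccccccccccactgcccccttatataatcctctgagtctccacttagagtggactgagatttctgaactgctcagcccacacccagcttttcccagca
Ifit3b: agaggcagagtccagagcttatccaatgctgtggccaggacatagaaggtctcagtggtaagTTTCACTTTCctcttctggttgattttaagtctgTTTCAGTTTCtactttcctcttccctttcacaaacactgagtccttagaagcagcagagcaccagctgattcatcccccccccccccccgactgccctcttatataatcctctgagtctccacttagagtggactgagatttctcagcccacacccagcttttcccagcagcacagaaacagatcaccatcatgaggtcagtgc
Isg15: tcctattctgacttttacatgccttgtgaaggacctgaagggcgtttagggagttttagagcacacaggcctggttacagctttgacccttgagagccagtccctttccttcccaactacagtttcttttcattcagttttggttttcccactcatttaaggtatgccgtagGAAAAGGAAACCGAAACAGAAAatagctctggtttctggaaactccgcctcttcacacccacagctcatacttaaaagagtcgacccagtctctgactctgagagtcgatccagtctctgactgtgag
Samhd1: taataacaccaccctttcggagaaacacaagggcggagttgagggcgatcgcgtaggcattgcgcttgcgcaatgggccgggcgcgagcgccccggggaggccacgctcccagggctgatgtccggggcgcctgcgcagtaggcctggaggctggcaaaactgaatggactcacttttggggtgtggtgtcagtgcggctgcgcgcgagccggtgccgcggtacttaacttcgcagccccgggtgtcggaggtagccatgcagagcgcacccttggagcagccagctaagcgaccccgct

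Letters of 3 other elements were counted in the same windows on either strand. The letters TTC and GAA with 3 bases between them, bound by STAT dimers, stood in 7 of the 27 members (25.9%) against 9.55% of all genes with a window. The wider spacing of 4 bases, preferred by STAT6, the factor activated by IL-4 and IL-13, stood in 5 of 27 (18.5%) against 8.01%. The NF-kB letters, GGG and CC with 5 bases between them, stood in 17 of 27 (63.0%) against 53.5% of all genes and 71.9% of genes tested. In the member windows 1 of 7 matches of the first, 1 of 6 of the second and 0 of 36 of the last shared a base with the ISRE letters. A match describes letters, not binding.

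The libraries held 14793404 to 20056125 counts. The treatments showed in their known targets: Arg1, the arginase gene induced by IL-4, ranged over 0.1102 to 1.004 CPM (median 0.501) in Control and 391 to 1036 CPM (median 607) in IL4_IL13, and the NF-kB target Tnfaip3 over 10.3 to 17.1 CPM (median 12.7) in IL4_IL13 and 160.1 to 180.3 CPM (median 168) with TNFa. Retnla, another target of IL-4, ranged over 0 to 0.331 CPM in Control and 461 to 1704 CPM in IL4_IL13, and Nfkbia, another of NF-kB, over 57.2 to 71.6 CPM in IL4_IL13 and 340.5 to 379 CPM with TNFa. CPM is the count relative to the size of the library, with sizes adjusted by TMM, a normalization that takes most genes as unchanged. The 7 macrophage markers summed to 13573 to 24309 CPM in Control, 7855 to 9571 in IL4_IL13 and 8159 to 8948 in IL4_IL13_TNFa, so both cytokine groups lay below Control. Lyz2, the lysozyme gene that makes up most of that sum in Control, had medians of 12454, 2827 and 3261 CPM, and Fcgr1, an Fc receptor gene, of 133, 21.8 and 0.871 CPM. The 7 stromal cell markers summed to 20.2 to 643 CPM in Control, 56.4 to 569 in IL4_IL13 and 59.3 to 366 in IL4_IL13_TNFa. Markers of plasmacytoid dendritic cells, the main interferon makers of blood, summed to at most 4.23 CPM in any library, with Klk1 at 0 counts throughout. Those of neutrophils summed to at most 17.8 CPM, carried by Cxcr2, with Ly6g at 0 counts. Of 4 conventional dendritic cell markers only Zbtb46 was above 2 CPM in any library. It stood at 32.8 to 35.8 CPM in IL4_IL13_TNFa against 0.402 to 1.32 in Control, with Xcr1 at 0 counts in IL4_IL13_TNFa. Cycling-cell markers summed to 691 to 2314 CPM in Control, 1261 to 2278 in IL4_IL13 and 136 to 231 in IL4_IL13_TNFa. The 2314 CPM were those of Control replicate 1. The other controls, at 691 to 1252 CPM, lay below every IL4_IL13 library. Control replicate 1 also had the lowest macrophage sum of its group, 13573 CPM, against 20370 to 24309 CPM in the other controls. The part of these shifts in the results was not tested. Control replicate 1 stood apart, with 2007 genes more than 2-fold away from the rest of its group, against 530 or fewer for each of the other libraries. In it, 36 of the 37 members lay below the average of the remaining controls, by a median of 0.81 on the log2 scale. Results are therefore also given without it.

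Nearly all of the interferon-stimulated genes were lower in cells given IL-4 and IL-13. Compared with Control, 35 of 37 members were lower in IL4_IL13, none was higher, and Usp18 and Samhd1 did not pass the test. The test was edgeR's quasi-likelihood test on all 18 libraries, with p-values adjusted by Benjamini-Hochberg over 13177 genes and a threshold of 0.05. It compared group means and left out the replicate number, which was used as a block only in an alternative setting, the replicate block. Of all genes tested, 29.7% were lower and 29.3% higher by the same rule. The members' median log2 fold change was -1.61, against -0.0024 over all genes. At least 2-fold lower were 28 members, against 6.69% of all genes. In 30 members every IL4_IL13 library lay below every Control library, which held for 14.2% of all genes. Without Control replicate 1, 36 members were lower and their median was -1.72, while 4340 of all 13344 genes then tested were lower. The macrophage markers were also lower in IL4_IL13, with sums at a median of 21944 CPM in Control and 8659 CPM in IL4_IL13. Their part in the fall was not tested. These are levels in bulk RNA, in which fewer cells of a kind and less RNA per cell cannot be told apart.

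**Figure D1:**
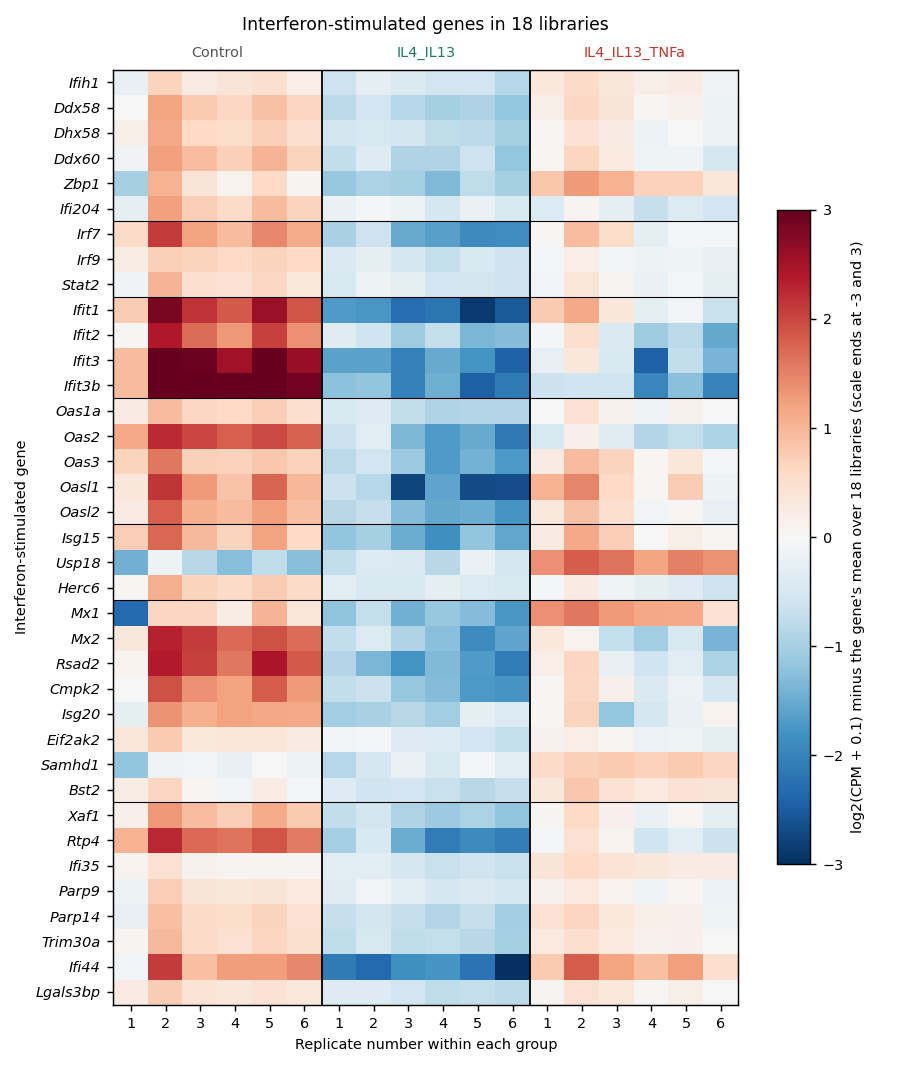
Heat map of the 37 members (rows, grouped by role and divided by lines) in 18 libraries (columns, by group and replicate number). Colour is log2(CPM + 0.1) minus the gene's mean over the 18 libraries, red above and blue below it. IL4_IL13 is blue in nearly every row, IL4_IL13_TNFa lies between for most rows and is the reddest group for Usp18, Mx1, Samhd1, Zbp1, Bst2 and Ifi35, and Control replicate 1 is paler than the other controls.

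The deepest falls were in the IFIT family, proteins that bind viral RNA and block its translation. Its 4 genes among the members lie in the same region of chromosome 19. All 4 fell (median log2 fold change -4.55). Ifit1 (ENSMUSG00000034459, chromosome 19, 34640871 to 34650009) ranged over 13.4 to 56.6 CPM (median 32.5) in Control and 0.991 to 2.36 CPM (median 1.59) in IL4_IL13. The lowest control, replicate 1, was still above every IL4_IL13 library, and Ifit1 was 20.7-fold lower (log2 fold change -4.37 ± 0.38, edgeR adjusted p = 1.98e-08). Here and below the value after ± is an approximate standard error, obtained from the log2 fold change and the F value. Ifit3 (ENSMUSG00000074896, chromosome 19, 34583531 to 34588731) ranged over 9.89 to 63.9 CPM (median 35.4) and 0.862 to 1.697 CPM (median 1.49), and was 26.7-fold lower (log2 fold change -4.74 ± 0.44, edgeR adjusted p = 4.89e-08). Ifit3b (ENSMUSG00000062488, chromosome 19, 34607970 to 34613401), a near copy of Ifit3, fell from 1.66 to 11.98 CPM (median 8.14) to 0.0661 to 0.297 CPM (median 0.175) (log2 fold change -5.33 ± 0.47, edgeR adjusted p = 2.01e-08). Its groups did not overlap either. However, Ifit3b passed the filter on low counts only through Control, with 878 counts there and 20 in IL4_IL13 over 6 libraries each. Its call and its place as the deepest fall therefore add no separate support. Reads that match both copies may have been split between them, so their single values are uncertain. Ifit2 fell less, 5.66-fold, from 18.8 to 97.97 CPM (median 53.3) to 7.004 to 14.2 CPM (median 9.92).

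All 5 OAS genes fell, by a median log2 fold change of -2.32. Oas1a, Oas2 and Oas3 make oligoadenylates that activate the RNA-cutting enzyme RNase L. Oas2 ranged over 127 to 272 CPM (median 214) in Control and 13.04 to 46.4 CPM (median 21.4) in IL4_IL13, and Oas3 over 141 to 265 CPM (median 144) and 26.7 to 59.4 CPM (median 37.4). Both were apart in all libraries, 7.98-fold and 4.15-fold lower. The OAS-like genes Oasl1 and Oasl2 fell by 3.07 and 2.32 on the log2 scale, and Oas1a fell by 1.32. Oasl1, known in mouse to restrain translation of Irf7, was near the floor of detection in IL4_IL13, at 0.246 to 1.39 CPM (median 0.474). Oas1a has close relatives, among which its reads may be split.

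Of the other antiviral effectors, 7 of 8 fell. Rsad2 (ENSMUSG00000020641, chromosome 12, 26442746 to 26456452), which encodes viperin, an enzyme that makes a chain-ending nucleotide, ranged over 8.69 to 44.9 CPM (median 31.5) in Control and 1.83 to 4.38 CPM (median 2.77) in IL4_IL13. It was 10.6-fold lower with no overlap (log2 fold change -3.40 ± 0.36, edgeR adjusted p = 2.44e-07). Its neighbour Cmpk2, a mitochondrial nucleotide kinase gene, fell 5.82-fold. Mx2 fell 7.49-fold and Mx1 3.07-fold. They encode dynamin-like GTPases that trap viral components, and laboratory strains such as C57BL/6 are known to carry defective forms. For Mx1 the groups overlapped, since Control replicate 1, at 3.11 CPM, lay below all IL4_IL13 libraries (4.74 to 9.74 CPM). Isg20, an exonuclease gene, fell 3.64-fold from 1.105 to 3.66 CPM (median 3.19) to 0.622 to 1.12 CPM (median 0.696). The smallest falls of this role were those of Eif2ak2, the RNA-activated kinase PKR, at 1.703-fold, and of Bst2, the tetherin that holds budding virus at the membrane, at 1.75-fold.

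All 6 genes that sense nucleic acids were lower, with log2 fold changes from -1.61 to -0.87. Ddx58 (RIG-I) ranged over 64.2 to 144 CPM (median 104) in Control and 28.1 to 42.9 CPM (median 34.2) in IL4_IL13, with no overlap, and was 3.05-fold lower. Ifih1 (MDA5) and Dhx58 (LGP2), which like RIG-I recognise double-stranded RNA, fell 1.82-fold and 2.51-fold. The helicase gene Ddx60 fell 2.99-fold. Zbp1, a sensor of Z-form nucleic acid, fell 2.57-fold, and Ifi204, a DNA-binding protein with close relatives in its gene cluster, fell 1.95-fold, both with overlap of the groups.

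All 3 transcription factors fell. Irf7, which raises transcription of the interferon genes themselves, went from 33.3 to 95.4 CPM (median 50.1) to 5.88 to 14.5 CPM (median 7.47), 6.302-fold lower. The ISGF3 subunits Irf9 and Stat2 fell 2.12-fold and 1.92-fold, from medians of 108 and 149.7 CPM to 49.1 and 75.3 CPM. In none of the 3 did the groups overlap.

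The remaining 8 members all fell (median log2 fold change -1.29). Ifi44 went from 1.51 to 7.17 CPM (median 3.93) to 0.108 to 0.396 CPM (median 0.276) (-3.83), and Rtp4, a receptor chaperone gene, from 49.4 to 116 CPM (median 76.4) to 5.54 to 17.5 CPM (median 7.39) (-3.10). Xaf1, a gene linked to cell death, had a log2 fold change of -1.77. Those of Trim30a, a restrainer of NF-kB signalling in mouse, and of Parp14, an ADP-ribosyltransferase gene, were -1.31 and -1.28. Lgals3bp, a secreted glycoprotein gene, had -1.02, Parp9, the partner of an interferon-induced ubiquitin ligase, -0.72, and Ifi35 -0.67. All but Parp9 were apart in every library.

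The ISG15 system split. Isg15, a ubiquitin-like protein attached to others during infection, ranged over 10.6 to 23.4 CPM (median 12.7) in Control and 1.87 to 3.44 CPM (median 2.72) in IL4_IL13, 5.39-fold lower with no overlap. Herc6, the main ISG15 ligase in mouse, fell 2.07-fold. Usp18, the protease that removes ISG15 and also blocks signalling at IFNAR2, stood at 10.04 to 24.8 CPM (median 13.4) in Control and 15.4 to 23.9 CPM (median 19.9) in IL4_IL13. The groups overlapped and the test was not passed (log2 fold change 0.38 ± 0.18, edgeR adjusted p = 0.0874). With the replicate number as a block its log2 fold change was 0.42 and it was called higher (edgeR adjusted p = 0.00451), and so it was without Control replicate 2 (0.59, edgeR adjusted p = 0.00252). Samhd1, which destroys the nucleotides that retroviruses need, stood at 283 to 631 CPM (median 587) in Control and 352 to 623 CPM (median 483) in IL4_IL13 (log2 fold change -0.13 ± 0.15, edgeR adjusted p = 0.474). Its low control was replicate 1. Without it Samhd1 was called lower (-0.26, edgeR adjusted p = 0.0256). So it was without the 3 libraries numbered 1 (-0.18, edgeR adjusted p = 0.0313).

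**Figure D2:**
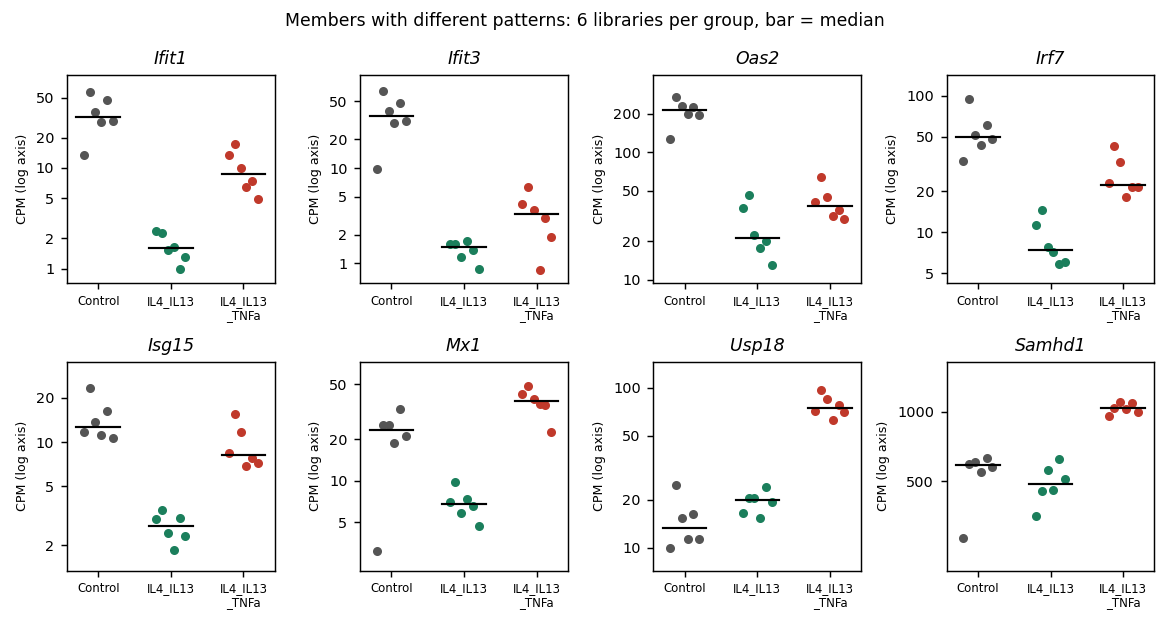
CPM on a log axis of 8 members with different patterns, 6 libraries per group (points) and their median (bar). By their medians Ifit1, Ifit3, Oas2, Irf7 and Isg15 are lowest in IL4_IL13 and partly higher again with TNFa, though for Ifit3 and Oas2 these 2 groups overlap. Mx1 returns to 22.4 to 48.4 CPM with TNFa, and there Usp18 and Samhd1 lie above every library of both other groups.

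Most of these genes were higher when TNFa was added to IL-4 and IL-13. Compared with IL4_IL13, 31 members were higher, none was lower and 6 did not pass the test. Of all genes tested 30.3% were higher and 29.3% lower. The median log2 fold change was 0.99 over the members and 0.0030 over all genes. At least 2-fold higher were 18 members, against 6.72% of all genes, and 23 were apart in every library, against 23.3% of all genes. This comparison shares the IL4_IL13 libraries with the one above, so a low value there enters both. Without the 3 libraries numbered 1 the count was again 31, and over all genes 4412 of 13260 were higher. Scaling by library totals in place of TMM moved the median of all genes to -0.20 and that of the members to 0.78, and of the genes called 27.5% were then higher, against 50.9% with TMM.

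The largest rises among members above 5 CPM were those of Ifit1, Mx1, Usp18 and Zbp1. Ifit1 ranged over 4.94 to 17.3 CPM (median 8.73) with TNFa and was 5.82-fold higher than in IL4_IL13 (log2 fold change 2.54 ± 0.38, edgeR adjusted p = 1.3e-05). Mx1 (ENSMUSG00000000386, chromosome 16, 97447035 to 97462907) ranged over 4.74 to 9.74 CPM (median 6.76) in IL4_IL13 and 22.4 to 48.4 CPM (median 37.6) with TNFa, 5.43-fold higher (log2 fold change 2.44 ± 0.36, edgeR adjusted p = 1.02e-05). Usp18 (ENSMUSG00000030107, chromosome 6, 121245906 to 121270917) rose to 62.8 to 96.7 CPM (median 74.6), 4.001-fold higher (log2 fold change 2.00 ± 0.18, edgeR adjusted p = 2.42e-08). Zbp1 (ENSMUSG00000027514, chromosome 2, 173206612 to 173218923) rose from 4.13 to 6.15 CPM (median 5.18) to 13.6 to 25.6 CPM (median 17.9), 3.698-fold higher (log2 fold change 1.89 ± 0.25, edgeR adjusted p = 2.41e-06). For all 4 every library with TNFa lay above every IL4_IL13 library. At lower levels, Ifi44 rose 12.7-fold to 2.31 to 5.83 CPM (median 3.38) and Oasl1 5.36-fold to 2.001 to 6.33 CPM (median 3.61).

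By role, 5 of 6 sensors, 3 of 3 transcription factors, 5 of 5 OAS genes, 2 of 3 genes of the ISG15 system, 6 of 8 other effectors and 8 of 8 of the remaining genes rose. In the IFIT family 2 of 4 rose. Irf7 rose 3.01-fold to 18.1 to 42.8 CPM (median 22.2), while Irf9 and Stat2 rose 1.35-fold and 1.34-fold. Oas3, Oasl2 and Oas1a rose 2.97-fold, 2.85-fold and 1.74-fold. Isg15 rose 3.57-fold to 6.87 to 15.6 CPM (median 8.17), with no overlap. The RNA sensors Ddx58, Ifih1, Dhx58 and Ddx60 rose 2.14-fold, 1.76-fold, 1.71-fold and 1.81-fold.

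Among the effectors Rsad2 rose 2.59-fold, Cmpk2 2.24-fold, Bst2 2.13-fold, Samhd1 2.11-fold and Eif2ak2 1.25-fold. Of the remaining genes Rtp4 rose 2.39-fold, Parp14 2.06-fold, Trim30a 1.99-fold, Xaf1 1.98-fold, Ifi35 1.85-fold, Lgals3bp 1.71-fold and Parp9 1.34-fold. Samhd1 stood at 958 to 1103 CPM with TNFa and 352 to 623 CPM without, so that its groups were apart.

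The 6 members that did not pass were Ifi204, Ifit2, Ifit3b, Herc6, Mx2 and Isg20. Ifit2 ranged over 6.25 to 26.1 CPM (median 11.9) with TNFa, which enclosed the IL4_IL13 range (log2 fold change 0.44 ± 0.36, edgeR adjusted p = 0.317). Ifit3b stood at 0.125 to 0.504 CPM (median 0.379) (log2 fold change 0.80 ± 0.66, edgeR adjusted p = 0.317). With 20 counts in IL4_IL13 and 30 with TNFa over 6 libraries each, this comparison cannot decide whether Ifit3b changed. Mx2 stood at 1.06 to 3.696 CPM (median 1.93) (log2 fold change 0.65 ± 0.37, edgeR adjusted p = 0.141), and Isg20 at 0.567 to 2.28 CPM (median 1.31) (log2 fold change 0.72 ± 0.33, edgeR adjusted p = 0.0657). Isg20 was called higher without Control replicate 1 (adjusted p = 0.0208, log2 fold change 0.72), IL4_IL13_TNFa replicate 3 (adjusted p = 0.02096, log2 fold change 0.88) or IL4_IL13 replicate 5 (adjusted p = 0.0477, log2 fold change 0.83), and with only the 2 groups compared (adjusted p = 0.0484), all by edgeR. Herc6 stood at 16.1 to 29.3 CPM (median 21.4) (log2 fold change 0.22 ± 0.14, edgeR adjusted p = 0.199). Ifi204 stood at 35.8 to 61.3 CPM (median 43.4) with a log2 fold change near 0 (log2 fold change -0.10 ± 0.19, edgeR adjusted p = 0.662).

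Some of the 31 calls rested on single libraries or on the setting. Oas2 stood at 29.8 to 64.02 CPM (median 38.1) with TNFa and overlapped IL4_IL13 (log2 fold change 0.65 ± 0.27, edgeR adjusted p = 0.0481). Its call ended in 18 of the 27 alternative settings (adjusted p 0.0501 to 0.167), among them 14 of 18 in which a single library was left out, the exceptions being IL4_IL13 replicates 1 and 2 and IL4_IL13_TNFa replicates 4 and 6. Ifit3 stood at 0.859 to 6.402 CPM (median 3.32) (log2 fold change 1.25 ± 0.47, edgeR adjusted p = 0.0296), and its call ended without IL4_IL13_TNFa replicate 1 (adjusted p = 0.0569, log2 fold change 1.17), IL4_IL13_TNFa replicate 2 (adjusted p = 0.09201, log2 fold change 0.97), IL4_IL13 replicate 3 (adjusted p = 0.0516, log2 fold change 1.21) or IL4_IL13 replicate 6 (adjusted p = 0.06104, log2 fold change 1.14). It also ended by library totals (adjusted p = 0.0634), with no filter (adjusted p = 0.0896) and with limma voom (adjusted p = 0.353). That of Eif2ak2 ended without IL4_IL13_TNFa replicate 1 (adjusted p = 0.0574, log2 fold change 0.29), IL4_IL13_TNFa replicate 2 (adjusted p = 0.0667, log2 fold change 0.27), IL4_IL13 replicate 5 (adjusted p = 0.0628, log2 fold change 0.28) or IL4_IL13 replicate 6 (adjusted p = 0.0663, log2 fold change 0.26). By library totals it had an adjusted p of 0.419, and with no filter 0.0557. That of Stat2 ended without IL4_IL13_TNFa replicate 2 (adjusted p = 0.0604, log2 fold change 0.33) and by library totals (adjusted p = 0.2195). The call of Parp9 ended by library totals alone (adjusted p = 0.122), and that of Rsad2 with limma voom alone (adjusted p = 0.0689). Where limma voom is not named, these p-values are from edgeR.

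**Figure D3:**
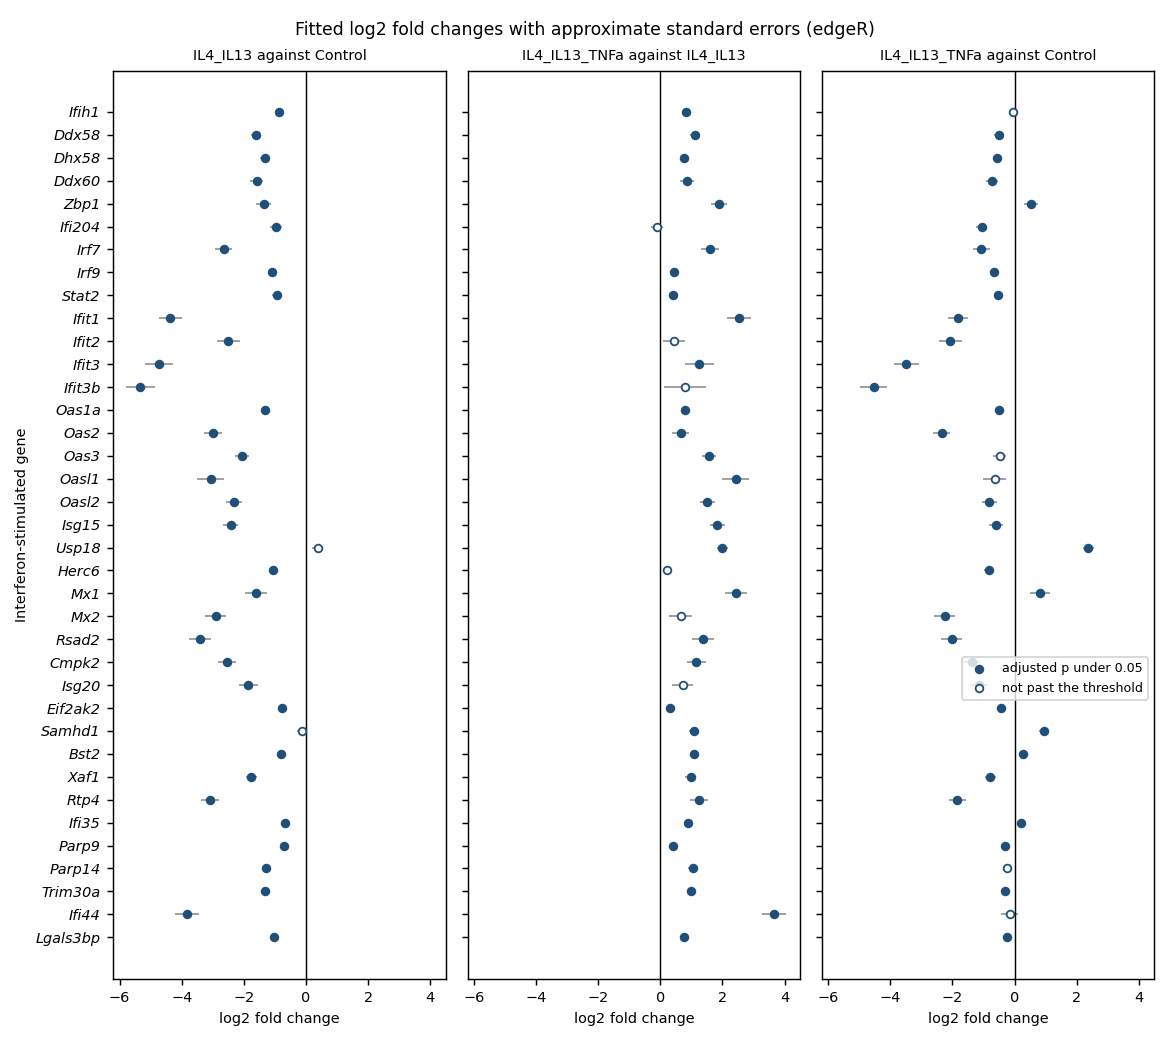
Log2 fold changes (points) with approximate standard errors (lines) of the 37 members in the 3 comparisons. Filled points passed the threshold of 0.05 on edgeR's adjusted p and open points did not. The points lie left of 0 in the first panel for 36 of 37 members, right of 0 in the second for 36 of 37, and are spread from -4.54 to 2.38 in the third.

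With all 3 cytokines most members were still below the untreated cells. Compared with Control, 26 members were lower in IL4_IL13_TNFa, 6 were higher and 5 did not pass the test. Of all genes tested 37.3% were lower and 36.4% higher. The members' median log2 fold change was -0.59, against -0.022 over all genes. Apart in every library and lower were 7 members (Irf9, Ifit3, Ifit3b, Oas2, Mx2, Eif2ak2 and Rtp4), against 25.1% of all genes, and 2 members were apart and higher (Usp18 and Samhd1), against 26.1% of all genes. A share of members apart near or under that of all genes is no result about the members. Without Control replicate 1, 28 were lower and 5 higher, and of all 13344 genes then tested 5162 were lower and 5209 higher. By library totals the median of all genes moved to -0.27, and of the genes called 32.7% were higher, against 49.4% with TMM.

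The IFIT genes had the lowest median of the roles, at -2.77. Ifit3b stood at 0.125 to 0.504 CPM with the 3 cytokines against 1.66 to 11.98 CPM in Control, 23.2-fold lower (log2 fold change -4.54 ± 0.44, edgeR adjusted p = 2.77e-08). Here too it had passed the filter only through Control, with 30 counts over the 6 libraries with the 3 cytokines. Ifit3 was 11.2-fold lower (log2 fold change -3.48 ± 0.40, edgeR adjusted p = 3.27e-07), with ranges of 0.859 to 6.402 and 9.89 to 63.9 CPM. Oas2 was 5.09-fold lower (log2 fold change -2.35 ± 0.28, edgeR adjusted p = 4.07e-07), its highest library with TNFa at 64.02 CPM and its lowest control at 127 CPM. Mx2 was 4.77-fold lower (log2 fold change -2.26 ± 0.33, edgeR adjusted p = 6.1e-06), at 1.06 to 3.696 against 3.77 to 14.96 CPM, a narrow gap between the groups. Ifit2, Rsad2, Rtp4, Ifit1 and Cmpk2 were 4.18-fold, 4.09-fold, 3.600-fold, 3.55-fold and 2.600-fold lower. Irf7 and Ifi204 were 2.09-fold and 2.09-fold lower, and Isg20 2.22-fold.

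The other 14 genes lower than in Control were less than 2-fold so. Herc6, Oasl2, Xaf1, Ddx60 and Irf9 had log2 fold changes of -0.83, -0.81, -0.78, -0.73 and -0.65. Those of Isg15, Dhx58, Stat2, Oas1a and Ddx58 were -0.59, -0.55, -0.52, -0.52 and -0.51. The smallest were those of Eif2ak2, Trim30a, Parp9 and Lgals3bp, at -0.45, -0.32, -0.30 and -0.24. Calls of 4 genes ended when a single library was left out, by edgeR. Isg15 was no longer called without Control replicate 2 (adjusted p = 0.0796, log2 fold change -0.40), IL4_IL13_TNFa replicate 4 (adjusted p = 0.0545, log2 fold change -0.51) or IL4_IL13_TNFa replicate 6 (adjusted p = 0.0532, log2 fold change -0.52). Parp9 was not called without Control replicate 2 (adjusted p = 0.0813, log2 fold change -0.21), IL4_IL13_TNFa replicate 4 (adjusted p = 0.0625, log2 fold change -0.26) or IL4_IL13_TNFa replicate 6 (adjusted p = 0.0652, log2 fold change -0.26). Trim30a was not called without Control replicate 2 (adjusted p = 0.0742, log2 fold change -0.22) or IL4_IL13_TNFa replicate 6 (adjusted p = 0.0591, log2 fold change -0.27). Lgals3bp was not called without Control replicate 2 (adjusted p = 0.119, log2 fold change -0.16), Control replicate 3 (adjusted p = 0.0504, log2 fold change -0.25), IL4_IL13_TNFa replicate 1 (adjusted p = 0.0807, log2 fold change -0.22), IL4_IL13_TNFa replicate 4 (adjusted p = 0.0878, log2 fold change -0.21), IL4_IL13_TNFa replicate 5 (adjusted p = 0.0615, log2 fold change -0.24) or IL4_IL13_TNFa replicate 6 (adjusted p = 0.0886, log2 fold change -0.21). With no filter on low counts none of the 4 was called, at edgeR adjusted p of 0.0858 for Isg15, 0.111 for Parp9, 0.115 for Trim30a and 0.196 for Lgals3bp.

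The 6 higher members were Usp18, Samhd1, Mx1, Zbp1, Bst2 and Ifi35, of which Usp18 and Samhd1 kept their call in every setting tried. Usp18 stood at 10.04 to 24.8 CPM in Control and 62.8 to 96.7 CPM with the 3 cytokines, 5.19-fold higher (log2 fold change 2.38 ± 0.19, edgeR adjusted p = 1.51e-09). Samhd1 (ENSMUSG00000027639, chromosome 2, 157097533 to 157135265) stood at 283 to 631 and 958 to 1103 CPM, 1.92-fold higher (log2 fold change 0.94 ± 0.16, edgeR adjusted p = 2.62e-05). Neither overlapped. Mx1 stood at 3.11 to 32.95 and 22.4 to 48.4 CPM, with overlap (log2 fold change 0.82 ± 0.33, edgeR adjusted p = 0.0323), and was no longer called without Control replicate 4 (adjusted p = 0.0565, log2 fold change 0.80), IL4_IL13_TNFa replicate 1 (adjusted p = 0.0548, log2 fold change 0.79) or IL4_IL13_TNFa replicate 2 (adjusted p = 0.0672, log2 fold change 0.74). Zbp1 stood at 5.22 to 21.7 and 13.6 to 25.6 CPM (log2 fold change 0.52 ± 0.23, edgeR adjusted p = 0.0479), a call that ended in 21 of 27 alternative settings (edgeR adjusted p 0.0503 to 0.291), 15 of them with a single library left out. Bst2 stood at 71.8 to 119.6 and 94.1 to 133 CPM (log2 fold change 0.28 ± 0.11, edgeR adjusted p = 0.0343), and was not called without Control replicate 3 (adjusted p = 0.0692, log2 fold change 0.25), Control replicate 4 (adjusted p = 0.0827, log2 fold change 0.23), Control replicate 5 (adjusted p = 0.0515, log2 fold change 0.27), Control replicate 6 (adjusted p = 0.0817, log2 fold change 0.23) or IL4_IL13_TNFa replicate 2 (adjusted p = 0.0989, log2 fold change 0.20). Ifi35 stood at 33.4 to 43.3 and 37.5 to 47.9 CPM (log2 fold change 0.21 ± 0.08, edgeR adjusted p = 0.0239), and was not called without Control replicate 5 (adjusted p = 0.06102, log2 fold change 0.19) or IL4_IL13_TNFa replicate 2 (adjusted p = 0.0652, log2 fold change 0.17). Mx1 was also not called with no filter (edgeR adjusted p = 0.0614) or with only the 2 groups compared (edgeR adjusted p = 0.0659). Bst2 was not called with the latter (edgeR adjusted p = 0.0647) or the stricter filter (edgeR adjusted p = 0.0695), nor Ifi35 with the stricter filter (edgeR adjusted p = 0.07001). By library totals only Usp18 and Samhd1 were called higher, and the log2 fold change of Ifi35 was -0.035.

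The 5 members that did not pass against Control were Ifih1, Oas3, Oasl1, Parp14 and Ifi44, and in each the groups overlapped. Ifih1 stood at 44.3 to 81.6 CPM in Control and 48.1 to 76.4 CPM with the 3 cytokines (log2 fold change -0.051 ± 0.13, edgeR adjusted p = 0.729), and Ifi44 at 1.51 to 7.17 and 2.31 to 5.83 CPM (log2 fold change -0.16 ± 0.28, edgeR adjusted p = 0.616). Parp14 stood at 213 to 473 and 232 to 399 CPM (log2 fold change -0.24 ± 0.15, edgeR adjusted p = 0.1701) and was called lower without Control replicate 1 (adjusted p = 0.0123, log2 fold change -0.35), without the 3 libraries numbered 1 (adjusted p = 0.01505) and by library totals (adjusted p = 0.00767). By totals Ifih1 was called lower too (adjusted p = 0.0382, log2 fold change -0.30). Oas3 stood at 141 to 265 and 87.5 to 172 CPM (log2 fold change -0.48 ± 0.22, edgeR adjusted p = 0.0558). It was called lower in 8 of 27 alternative settings: with the replicate block (-0.49, edgeR adjusted p = 0.00104), by library totals (edgeR adjusted p = 0.00578), with the stricter filter (edgeR adjusted p = 0.0334), with only the 2 groups compared (edgeR adjusted p = 0.0395), with DESeq2 (adjusted p = 0.0388), with limma voom (adjusted p = 0.0407), and in edgeR without IL4_IL13 replicate 2 (adjusted p = 0.0445, log2 fold change -0.48) or IL4_IL13_TNFa replicate 2 (adjusted p = 0.0184, log2 fold change -0.61). Oasl1 stood at 2.86 to 10.2 and 2.001 to 6.33 CPM (log2 fold change -0.64 ± 0.36, edgeR adjusted p = 0.1201), and was called lower with the replicate block (-0.65, edgeR adjusted p = 0.0415), by library totals (adjusted p = 0.0343), without the 3 libraries numbered 1 (adjusted p = 0.0313) and without Control replicate 1 (adjusted p = 0.0438, log2 fold change -0.79).

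The order of the members among themselves also shifted. Per exon length, as TPM (a level, computed from the counts and the summed exon length of each gene), Lgals3bp, Bst2 and Samhd1 took the first 3 places in every group. Medians in Control were 654, 378 and 265. Oas2 followed in place 4 in Control at 195, and was in place 18 in IL4_IL13 at 18.4 and place 21 with TNFa at 28.04. Rtp4 went from place 7 to 21 and 19, and Ifit3 from 13 to 29 and 30. Usp18 went the other way, from place 29 in Control to 14 in IL4_IL13 and 6 with TNFa, at 19.7, 27.3 and 87.5. Ifi44 was last in Control, at 2.601. The libraries of neighbours could overlap in this order, as did those of Bst2 (179 to 257) and Samhd1 (154 to 257) in IL4_IL13.

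Members with and without the ISRE letters were set side by side, with no test of the difference. Absence of the exact letters from these windows is not absence of the element, and the part of the element was not tested. Among the 27 members with a window, the median log2 fold change in IL4_IL13 against Control was -1.60 in the 14 with the ISRE letters and -1.86 in the 13 without them. With TNFa added the medians were 1.04 and 0.98, and against Control -0.52 and -0.78. Members without the letters in these windows ranged from -3.83 (Ifi44) to -0.13 (Samhd1) in the first comparison, and members with them from -5.33 (Ifit3b) to -0.77 (Eif2ak2).

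The level of the whole set also varied with the replicate number. The mean log2 CPM over the 37 genes ranged from 4.71 to 6.11 in Control, 3.29 to 3.99 in IL4_IL13 and 4.37 to 5.31 in IL4_IL13_TNFa. Library 2 was the highest in each of the 3 groups, and library 6 the lowest in both groups with cytokines. In Control replicate 2 and IL4_IL13_TNFa replicate 2, 0 of 37 members lay below the mean of the other libraries of the group, and in IL4_IL13_TNFa replicate 4 all 37 did. Within every number IL4_IL13 was the lowest of the 3 libraries. For number 1 alone the library with TNFa, at 4.89, lay above its control, at 4.71. The summed stromal markers also went with the number, lowest for number 1 in each group (20.2 CPM in Control, 56.4 in IL4_IL13, 59.3 in IL4_IL13_TNFa) and highest for number 6 (643, 569 and 366 CPM). Their part in the members' levels was not tested.

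**Figure D4:**
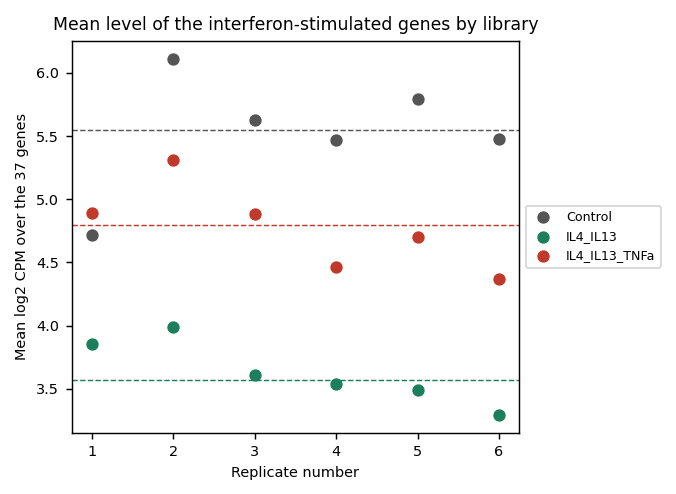
Mean log2 CPM over the 37 members (vertical axis) for each library by replicate number (horizontal axis), coloured by group, with dashed lines at the group medians. IL4_IL13 is lowest at every number, Control highest at 5 of 6, and number 2 is the highest in each group.

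The genes that make and sense interferon were examined next, from lists of genes by function. Transcripts of the type I interferon genes on the list were nearly or wholly undetected, and other interferon genes were not looked up. Ifnb1, which encodes interferon beta, had 2 counts over the 6 controls and 0 in the other groups, Ifna1 had 3, 0 and 0, and Ifna2 had 0, 1 and 0. Ifna4, Ifna5 and Ifne had none. A count of 0 over 6 libraries, taken as at most 3 counts, allows up to 0.0289 CPM in Control, 0.0296 in IL4_IL13 and 0.0300 in IL4_IL13_TNFa, for counting error only. These limits use library totals without TMM scaling, so they are not quite on the scale of the other CPM values. Short bursts before the 24 h point are not covered by these counts.

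Of 20 genes for production and sensing 14 were tested. In IL4_IL13, 8 were lower (57.1%, against 29.7% of all genes tested) and 3 higher (21.4%, against 29.3%) than in Control, with a median log2 fold change of -0.34. Tlr9, the endosomal receptor for DNA, fell from 34.6 to 94.7 CPM (median 86.2) to 13.8 to 32.5 CPM (median 24.5) (-1.71), and Tlr7, that for RNA, from 230.2 to 470.2 CPM (median 440.2) to 125 to 169.7 CPM (median 149.9) (-1.45). Ticam1, the adaptor of TLR3 and TLR4, and the transcription factor gene Irf5 rose by log2 fold changes of 0.50 and 0.45. With TNFa added, 7 rose (50%, against 30.3% of all genes) and 5 fell (35.7%, against 29.3%). Traf3 and Ikbke, a signalling adaptor and a kinase that act towards interferon transcription, rose 3.22-fold and 2.696-fold. Tlr9 fell again, to 3.56 to 6.33 CPM (median 5.61) (-2.19). Tlr8, another endosomal receptor, fell in this step (-0.79), from 267 to 380.1 CPM (median 368) to 163 to 224 CPM (median 204), and stood at 165 to 374 CPM (median 364) in Control. Against Control, 6 were lower (42.9%) and 5 higher (35.7%) with the 3 cytokines, shares near the 37.3% and 36.4% of all genes. Tlr9 and Tlr7 were 14.8-fold and 4.06-fold lower, and Traf3 and Irf5 2.63-fold and 2.54-fold higher.

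All 9 genes listed for the receptors and JAK-STAT factors were tested. In IL4_IL13, 3 were lower (33.3%) and 1 higher (11.1%), against 29.7% and 29.3% of all genes, so the count lower is near the background. Ifnar1, a receptor chain, stood at 255 to 324 CPM (median 293) in Control, 161 to 181 (median 175) in IL4_IL13 and 395 to 464 (median 434) in IL4_IL13_TNFa. It fell with IL-4 and IL-13 (-0.74) and rose above Control with TNFa (0.58), with no overlap in any comparison. Ifnar2, the other chain, stood at 129 to 190.5 CPM (median 182) in Control, 83.4 to 90.3 (median 86.9) in IL4_IL13 and 90.6 to 101 (median 95.5) in IL4_IL13_TNFa. It fell 2.01-fold in IL4_IL13 and did not pass the test for TNFa (log2 fold change 0.13 ± 0.07, edgeR adjusted p = 0.135), though every library with TNFa was above those without. It was called higher without Control replicate 1 (adjusted p = 0.00447, log2 fold change 0.13), without the 3 libraries numbered 1 (adjusted p = 0.0168) and with only the 2 groups compared (adjusted p = 0.0199). Irf8, a myeloid transcription factor gene, fell in IL4_IL13 (-0.94).

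Jak2, a kinase of the interferon gamma receptor, rose in both steps, from 49.7 to 54.1 CPM (median 50.6) through 101 to 113 CPM (median 108) to 376 to 444 CPM (median 403). Ifngr1, a chain of that receptor, fell with TNFa (-0.97), and was 2.42-fold lower than in Control. Irf1, a factor induced by interferon gamma and by TNFa, stood at 47.3 to 91.3 CPM in Control and 60.5 to 102 CPM in IL4_IL13 (log2 fold change 0.0050 ± 0.15, edgeR adjusted p = 0.9798) and rose to 109 to 157 CPM (median 113) with TNFa (0.61). With TNFa 4 of the 9 rose (44.4%, against 30.3% of all genes) and 1 fell (11.1%, against 29.3%). Against Control 4 were higher (44.4%) and 3 lower (33.3%), near the 36.4% and 37.3% of all genes. Without Control replicate 1 the count called in IL4_IL13 against Control was 7 in place of 4. Over all genes it also rose, to 9081 of 13344 from 7774 of 13177, so the gain is no result about this list.

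Of 12 genes that restrain the pathway 10 were tested. Socs1, an inhibitor of JAK kinases known to be induced by IL-4, stood at 1.05 to 1.82 CPM (median 1.49) in Control, 43.4 to 57.9 (median 45.9) in IL4_IL13 and 76.7 to 99.9 (median 81.4) in IL4_IL13_TNFa. It was 34.1-fold higher in IL4_IL13 than in Control (log2 fold change 5.09 ± 0.12, edgeR adjusted p = 4.35e-16). It rose once more with TNFa (0.80). Socs3, which restrains STAT3 signalling, fell in IL4_IL13 (-1.51) and rose with TNFa (2.66). Irf2, a repressor at ISRE sites, rose in IL4_IL13 (0.47), and the phosphatase gene Ptpn6 fell (-0.87). With TNFa Pias1, an inhibitor of STAT signalling, fell (-0.32). Adar, an RNA-editing enzyme gene that keeps own RNA from the sensors, was lower than in Control with the 3 cytokines (-0.42). In all, 4 were higher (40%) and 3 lower (30%) in IL4_IL13, near the 29.3% and 29.7% of all genes. With TNFa added 5 were higher (50%) and 1 lower (10%), against 30.3% and 29.3% of all genes, and against Control 5 higher (50%) and 3 lower (30%), against 36.4% and 37.3%. Trex1 was listed at 0 in all libraries. The counting rules for overlapping genes are not given, so this need not mean that the gene is silent.

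**Figure D5:**
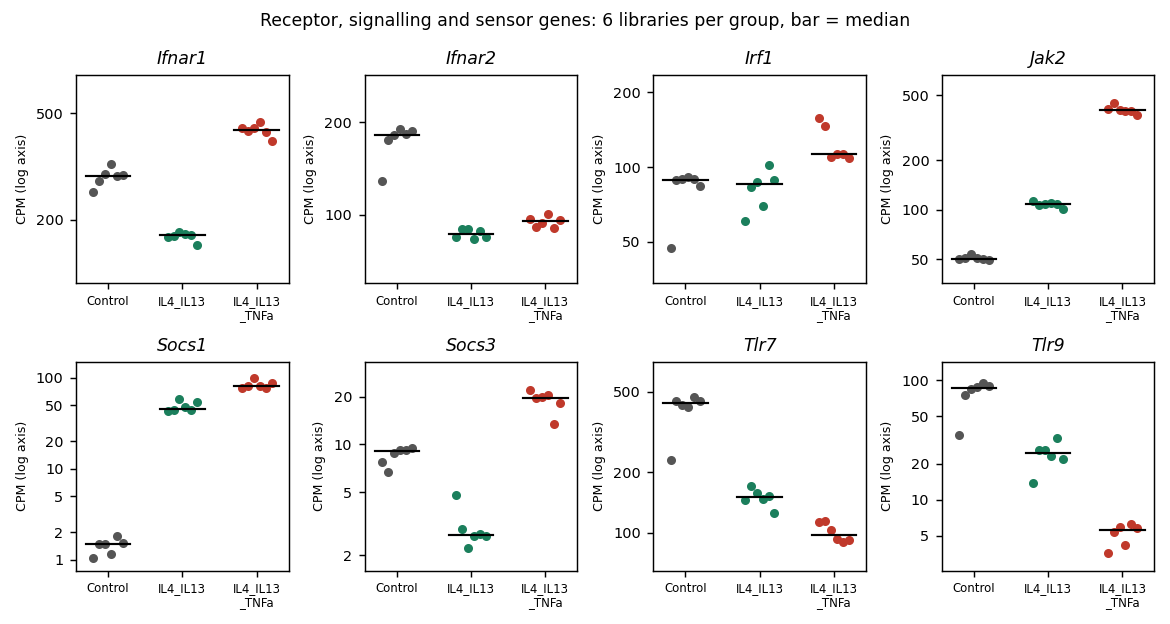
CPM on a log axis of 8 genes of the receptors, signalling, restraint and sensing, 6 libraries per group (points) and their median (bar). Ifnar1 dips in IL4_IL13 as the members do, Ifnar2 stays low with TNFa, Irf1 is highest with TNFa, Jak2 and Socs1 rise in both steps, and Tlr7 and Tlr9 fall in both.

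A further 49 interferon-stimulated genes outside the members were set beside them, 48 of which were tested. In IL4_IL13, 37 were lower (77.1%, against 29.7% of all genes) and 1 was higher (2.08%, against 29.3%), with a median log2 fold change of -0.91. Cxcl10, a chemokine gene, fell from 5.27 to 16.4 CPM (median 9.78) to 0.0539 to 0.735 CPM (median 0.192), and Ms4a4c, a membrane protein gene, from 1.004 to 9.48 CPM (median 6.97) to 0.679 to 1.23 CPM (median 1.098). Tor3a, a torsin gene, rose (0.58). With the replicate number as a block 41 were lower and 2 higher, the second being Slfn9 (0.43, edgeR adjusted p = 0.0396). Over all genes the block also raised the calls, from 3909 to 4229 lower and from 3865 to 4403 higher. With TNFa added, 28 rose (58.3%, against 30.3% of all genes) and 4 fell (8.33%, against 29.3%), with a median of 0.37. Slfn5 and Ifi211 rose 3.92-fold and 3.36-fold, while Slfn9 and Oas1c fell (-1.68 and -0.92). Against Control 30 were lower (62.5%, against 37.3% of all genes) and 8 higher (16.7%, against 36.4%). Cxcl10 and Ms4a4c were 6.18-fold and 7.82-fold lower, and Tor3a and Phf11b 3.01-fold and 2.17-fold higher. Slfn, Ifi200 and Oas1 genes form clusters of close relatives, so their single values are uncertain.

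Genes that interferon gamma also induces were mostly higher with TNFa added. Of 15, 13 were tested: 7 fell (53.8%) and 3 rose (23.1%) in IL4_IL13, against 29.7% and 29.3% of all genes, and 11 rose (84.6%, against 30.3%) and none fell with TNFa added. Gbp2, a guanylate-binding protein that attacks vacuoles holding microbes, stood at 7.73 to 19.6 CPM (median 16.3) in Control, 6.902 to 19.95 (median 9.24) in IL4_IL13 and 633 to 716 (median 686) in IL4_IL13_TNFa. It was 63.04-fold higher with TNFa (log2 fold change 5.98 ± 0.25, edgeR adjusted p = 4.63e-13) and Gbp3 14.6-fold higher, beyond any of the 37 members. Gbp5 and Gbp7 fell in IL4_IL13 (-2.55 and -2.23). Cd274, which encodes the checkpoint ligand PD-L1, rose in both steps, from 6.78 to 8.82 CPM (median 8.05) through 39.96 to 49.7 CPM (median 41.2) to 178 to 245 CPM (median 215). Ciita, the switch gene of MHC class II, rose in IL4_IL13 (1.40), with Control replicate 1 at 2.21 CPM below the others. With the replicate block Gbp2 was called lower in IL4_IL13 (-0.52, edgeR adjusted p = 0.0265) and Ciita higher with TNFa added (0.98, edgeR adjusted p = 0.0246). Against Control 9 were higher (69.2%, against 36.4% of all genes) and 2 lower (15.4%, against 37.3%), the latter being the GTPase genes Igtp (-0.81) and Irgm1 (-0.54).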

How the data were processed

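The 18 samples were grouped by title. Per the labels' protocols, poly(A) RNA went into NEBNext Ultra II Directional libraries. The authors deposited 1 table of raw counts, whole numbers of reads for each gene. Tools named in the submitters' processing notes are featureCounts 1.5.1, STAR 2.5.2 or 2.5.2b, RSEM 1.3.0, bcl2fastq 2.20.0.422 and FastQC 0.11.5, and the build is GRCm38. Strand setting, annotation release and filters of the counting are not given, which leaves overlapping, antisense and near-identical genes uncertain. GENCODE M21 gave symbols to 48434 of 48794 IDs; 360 had none. Mb21d1 and Mnda of the lists had no row.

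Genes were kept by filterByExpr (minimum count 10) and fitted with edgeR 4.0.16 (TMM, robust quasi-likelihood, R 4.3.3) over all 18 libraries. The 3 contrasts had a threshold of 0.05 on the adjusted p. CPM uses the TMM-scaled sizes, except in the limit for 0 counts, which uses library totals. Library totals were 14793404 to 20056125, and the limit for 0 counts covers counting error only. Over 45 pairs of libraries within groups, chi-square per degree of freedom was at least 2.72, so none repeated another. The scripts were tested on simulated counts. Replicate numbers recur across groups. Taken relative to its group, a library correlated with each same-numbered one at 0.114 to 0.642 (18 pairs). Of the 18 libraries, 17 matched their own number best, so the libraries appear to be paired by number, though no label says why. The main fit did not use this pairing: its counts and p-values compare group means. The pairing entered only as the replicate block among the alternatives, with which 3 member calls were gained and 0 lost. The block raised the number of calls over all genes too.

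The members, lists and alternatives were chosen with earlier results of these data known. Named with full statistics were, per comparison, the 4 largest called rises and falls with a mean of at least 5 CPM, members higher than Control, and members not called; from each list, up to 2 rises and 2 falls, plus Ifnb1, Ifnar1, Ifnar2 and Irf1, and as treatment checks Arg1, Retnla, Nfkbia and Tnfaip3. Other changes of members, among them the falls and rises of Ifi44 and Oasl1 around IL4_IL13, were described by fold or log2 fold change, some with ranges. Some items are not reported here. Alternatives were DESeq2 1.42.0 and its size factors, library totals, no filter, a filter of 5 CPM in 6 libraries, limma voom (3.58.1), a replicate block, only the 2 groups compared, no libraries numbered 1, and each library left out. TPM used summed exon lengths of GENCODE M21.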

Additional observations from a re-analysis of the deposited data

Results flagged for a closer look

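In groups of 6 libraries, a member, or the mean log2 level of all members, was picked out where its highest or lowest library stood apart from the nearest by more than Dixon's critical share of the group's range. With 37 members and the mean in 3 groups, 114 sets of 6 libraries were tested. Of these 9, all of single members, met this. Chance gives about 1 in 20 for a single set. The sets share libraries in which the members move together, so that rate gives no expected number for all of them. Control replicate 1 was the low library for 3 members: Irf9 at 80.2 CPM (other controls 104 to 113), Isg20 at 1.10 (3.02 to 3.66) and Samhd1 at 283 (550 to 631). Control replicate 2 was the high library for 5: Oas3 at 265 CPM (141 to 156), Eif2ak2 at 124 (86.2 to 93.1), Bst2 at 119.6 (71.8 to 89.2), Ifi35 at 43.3 (33.4 to 34.6) and Lgals3bp at 600.6 (416 to 477). With the 3 cytokines, replicate 2 was the high library for Bst2, at 133 CPM (94.1 to 105).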

How the results depend on the processing

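In 27 alternative settings, 18 of which left out 1 library each, the call of 35 of 37 members in IL4_IL13 against Control held throughout, the exceptions being Usp18 and Samhd1. It held for 30 of 37 with TNFa added and for 24 of 37 in IL4_IL13_TNFa against Control. Members higher in IL4_IL13 than in Control numbered 1 with the replicate block and 0 to 1 with a library left out, against 0. Genes of the receptors and JAK-STAT list called there numbered 4 to 7 with a library left out. Calls there over all genes also varied, and reached 9081 of 13344 without Control replicate 1, against 7774 of 13177. Members higher in IL4_IL13_TNFa than in Control numbered 6, but 2 by library totals, 3 with the stricter filter, 3 with only the 2 groups compared, and 2 to 6 with a library left out. By library totals the members' median for TNFa added was 0.78 in place of 0.99; the totals shift all genes.

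Signs turned only for log2 fold changes near 0 or under library totals. Irf1 in IL4_IL13 against Control was -0.00017 with DESeq2 size factors, -0.040 by totals, -0.027 with the stricter filter, -0.036 without the libraries numbered 1, and -0.11 to 0.082 with a library left out. By totals Ifnar2 with TNFa added was -0.078, and Ifi35 against Control -0.035. In IL4_IL13_TNFa against Control, Ifih1 was 0.023 with no filter. There, with a library left out, Ifih1 ranged from -0.14 to 0.029 and Ifi44 from -0.35 to 0.090. The cause was not tested beyond the shift by totals.

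With the replicate block the pairing changed the calls of 3 members, Usp18 in IL4_IL13 against Control (0.42) and Oas3 (-0.49) and Oasl1 (-0.65) in IL4_IL13_TNFa against Control, and no other member's call. In the other lists 19 calls were gained and 0 lost with the block, over the 3 comparisons. Calls over all 13177 genes rose too. They went from 7774 to 8632 in IL4_IL13 against Control and from 7856 to 8516 with TNFa added. In IL4_IL13_TNFa against Control they went from 9722 to 10185. The gains are therefore no result about these lists. Depth limits members such as Ifit3, Ifit3b, Oasl1, Ifi44 and Isg20, with under 2 CPM in every IL4_IL13 library.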
